A study of Mus musculus with 4 samples.

Results

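The genes described here code for 10 transcription factors that build and maintain the heart: Gata4, Gata5, Gata6, Tbx5, Tbx20, Nkx2-5, Mef2a, Mef2c, Hand1 and Hand2. For each gene the CCGG sites that are listed in all 4 deposited tables were taken within the gene's mm10 span and 2 kb either side. All 10 genes were measured, with 13 to 86 sites each and 367 sites in all, of 996020 sites that the 4 tables share. They were set beside 16887 protein-coding autosomal genes with at least 5 shared sites.

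The DNA came from the left ventricle of C57BL/6 mice aged 8 weeks, and all tissue was collected 3 days after an induced myocardial infarction. The 4 samples, with a single sample in each group, were Neil3-/- infarcted, Neil3-/- non-infarcted, wild-type infarcted and wild-type non-infarcted tissue. Neil3 codes for a DNA glycosylase that removes oxidized bases. The labels do not give the number of animals behind a sample, their sex, or whether infarcted and non-infarcted tissue came from the same hearts. No difference between samples here has a replicate check.

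The assay, HMST-seq, reads tags beside CCGG sites in 3 libraries per sample. HpaII cuts only unmodified CCGG, and MspI cuts whatever the state of the inner cytosine. In the library called BGT here, the DNA was glucosylated before MspI, which shields 5-hydroxymethylcytosine (5hmC). The HpaII ratio is the summed HpaII signal of a gene as a percent of its summed MspI signal, and a higher value means relatively more unmodified sites. The BGT ratio is formed in the same way, and a lower value means relatively more 5hmC. The libraries sum to between 34161766 and 43985354 signal units, and the libraries of a sample to similar totals, so both ratios can exceed 100% and are relative levels rather than shares of DNA molecules. The number of reads behind a signal value is unknown.

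These factors work as a network. The GATA zinc finger proteins, the T-box proteins, the homeobox protein Nkx2-5 and the MADS-box proteins of the Mef2 family bind near each other at enhancers of sarcomere genes, and the basic helix-loop-helix proteins Hand1 and Hand2 act in the growth of the ventricles. Genes of such developmental regulators often carry long stretches of CpG-rich DNA that stays unmethylated.

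The bases before the start of 4 of the genes are shown, because a CCGG site measured in all 4 samples lies in each of these stretches. The sequences are from RefSeq (GRCm38.p6), read on the gene's strand, and each holds the 250 bases just before an annotated start. Capitals mark every CCGG. The windows are chr7:67372859-67373108 (minus strand) for Mef2a, chr8:57320733-57320982 (plus strand) for Hand2, chr9:24774304-24774553 (minus strand) for Tbx20 and chr13:83573357-83573606 (plus strand) for the Mef2c start at position 83573607.
Mef2a: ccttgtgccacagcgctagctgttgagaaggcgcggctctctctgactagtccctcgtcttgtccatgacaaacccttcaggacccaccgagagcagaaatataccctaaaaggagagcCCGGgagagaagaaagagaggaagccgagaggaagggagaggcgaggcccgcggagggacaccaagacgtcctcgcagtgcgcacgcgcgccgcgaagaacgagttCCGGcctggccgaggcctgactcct
Hand2: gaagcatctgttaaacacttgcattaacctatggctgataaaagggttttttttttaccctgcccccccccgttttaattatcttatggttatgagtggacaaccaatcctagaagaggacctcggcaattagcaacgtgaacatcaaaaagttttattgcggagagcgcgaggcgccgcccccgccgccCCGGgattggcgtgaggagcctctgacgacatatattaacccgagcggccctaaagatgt
Tbx20: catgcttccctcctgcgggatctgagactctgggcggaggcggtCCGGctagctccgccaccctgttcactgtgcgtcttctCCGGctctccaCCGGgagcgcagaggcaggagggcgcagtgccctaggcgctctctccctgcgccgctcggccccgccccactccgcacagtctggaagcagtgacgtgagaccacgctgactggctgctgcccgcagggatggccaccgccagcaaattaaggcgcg
Mef2c: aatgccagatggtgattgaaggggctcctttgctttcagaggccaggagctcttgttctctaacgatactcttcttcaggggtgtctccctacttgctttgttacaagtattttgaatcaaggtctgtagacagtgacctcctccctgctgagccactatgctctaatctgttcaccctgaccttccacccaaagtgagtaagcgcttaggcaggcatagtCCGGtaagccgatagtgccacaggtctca
The measured site begins 131 bases before the start in Mef2a, 60 bases before it in Hand2, 206 in Tbx20 and 29 in Mef2c. A search for CCGG, which reads the same on both strands, found at least 1 in 47.1% of 32851 promoter windows of this length and at least 3, as in Tbx20, in 15.5%.

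At the Hand2 site just before the start, the HpaII ratio was 305% in Neil3-/- infarcted, 325% in Neil3-/- non-infarcted, 427% in wild-type infarcted and 451% in wild-type non-infarcted tissue. Both Neil3-/- samples lay below both wild-type samples. The Mef2a site stood at 129% in Neil3-/- infarcted, 134% in Neil3-/- non-infarcted, 163% in wild-type infarcted and 145% in wild-type non-infarcted tissue, and again both Neil3-/- samples were below both wild-type ones. The Tbx20 site stood at 146% in Neil3-/- infarcted, 179% in Neil3-/- non-infarcted, 160% in wild-type infarcted and 171% in wild-type non-infarcted tissue, so both infarcted samples lay below both non-infarcted ones, which was so at 17.9% of all autosomal sites. The Mef2c site stood at 357% in Neil3-/- infarcted, 335% in Neil3-/- non-infarcted, 491% in wild-type infarcted and 425% in wild-type non-infarcted tissue, higher after infarction in each genotype and lower in Neil3-/- in each tissue. Both Neil3-/- samples lay below both wild-type samples at 16.2% of all autosomal sites. Among Mef2c sites with a mean MspI signal of at least 20 units, the one shown had the largest genotype fall in each tissue. The difference there was -134 points in infarcted and -89.4 points in non-infarcted tissue. A further Mef2c site measured in all 4 samples, 133 bases before its start at position 83523656, is not among these 4. The 4 sites therefore do not cover every measured site before a start, and no count over them is set against that share. These are single sites with MspI signals between 16.4 and 86.6 units.

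In level, all 10 genes stood above the median gene in each sample. The median gene was at 119% in Neil3-/- infarcted, 117% in Neil3-/- non-infarcted, 119% in wild-type infarcted and 114% in wild-type non-infarcted tissue. Hand2 had the highest HpaII ratio of the 10 in each sample, and only 1.23% to 2.08% of all genes stood above it. Hand1 came next in each sample. Mef2c was lowest in 3 of the 4 samples and Mef2a in wild-type infarcted tissue, and 40.0% to 48.4% of all genes stood above Mef2c. From Mef2c up to Gata6 the ranges over the 4 samples overlapped between neighbours in the order of the levels, while Hand1 and Hand2 each stood clear.

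**Figure D1:**
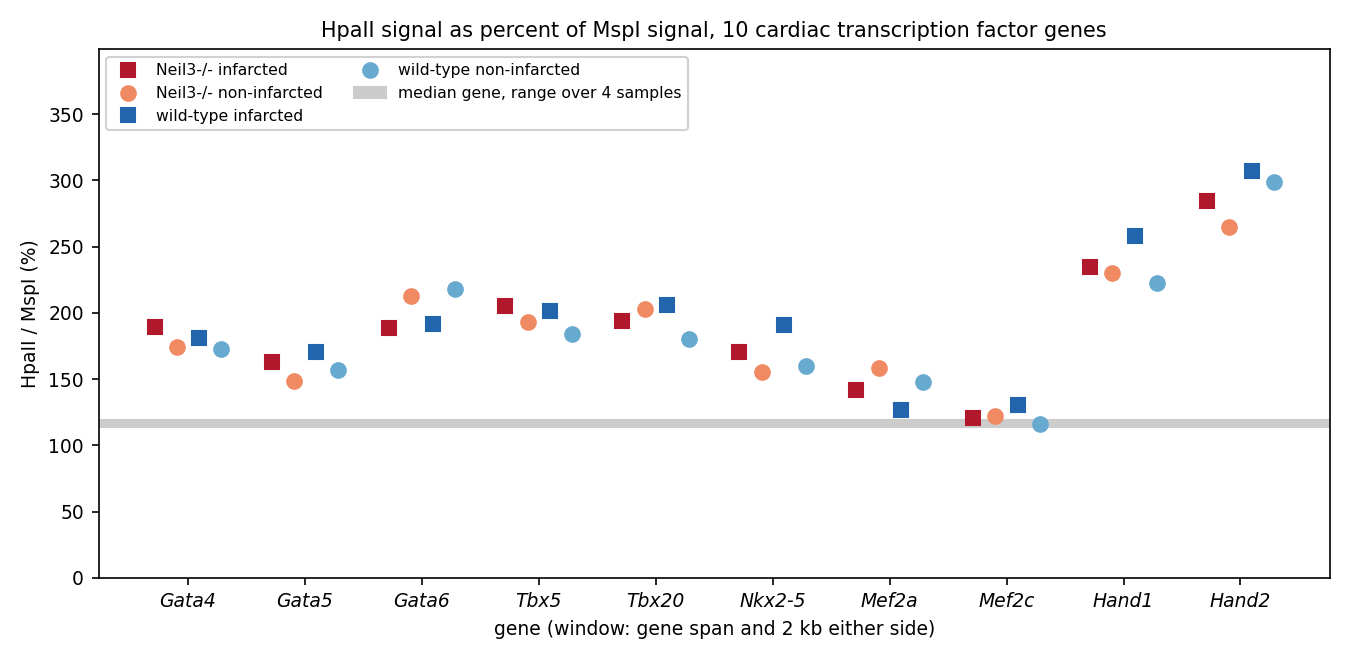
HpaII signal as a percent of MspI signal (vertical axis) for the 10 genes, 1 point per sample, Neil3-/- in red and orange, wild type in blue, squares for infarcted and circles for non-infarcted tissue. The grey band is the range of the median gene over the 4 samples. Hand2 and Hand1 lie highest, Mef2c lies near the band, and only in Gata6 and Mef2a do both squares lie below both circles.

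In 5 of the 6 genes with a start in the promoter table, sites within 1 kb of a start had a higher HpaII ratio than the rest of the window in each sample. The 4 sites of Mef2a within 1 kb of the start gave an HpaII ratio of 304% in Neil3-/- infarcted, 279.7% in Neil3-/- non-infarcted, 300.5% in wild-type infarcted and 322% in wild-type non-infarcted tissue. Its 23 other sites gave 107% in Neil3-/- infarcted, 128% in Neil3-/- non-infarcted, 90.2% in wild-type infarcted and 114% in wild-type non-infarcted tissue. At the sites away from the start both infarcted samples were lower than both non-infarcted ones. Near the start the infarcted sample was higher in Neil3-/- and lower in wild type. In Mef2c the 7 sites near its 3 annotated starts gave 411% to 467% over the 4 samples and the 41 others 93.8% to 100.3%. Tbx20 had 291% to 299.8% near the start and 158% to 184% elsewhere. Nkx2-5, a compact gene, showed no such step, with 145% to 173% at 3 sites near the start and 159% to 197% at 10 others.

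The infarct comparison sets damaged against spared muscle of the same genotype. In such bulk tissue a change in the share of a cell type cannot be told apart from a change within cells. A difference of at least 20 percentage points was used as a rule of size. Within Neil3-/-, 6 of the 10 genes were higher in infarcted tissue, against 61.2% of all genes, and within wild type 8 were, against 69.1%. Within Neil3-/-, 1 gene was higher by this rule, Hand2, against 6.82% of all genes, and 1 was lower, Gata6, against 2.82% of all genes. Within wild type, Tbx20, Nkx2-5 and Hand1 were higher, against 12.1% of all genes, and Gata6 and Mef2a were lower, against 3.28% of all genes. The median over the 10 genes was 8.19 points in Neil3-/- and 13.6 points in wild type, beside 2.09 and 4.84 points over all genes. Both infarcted samples lay above both non-infarcted ones in 5 genes, Gata4, Gata5, Tbx5, Nkx2-5 and Hand1, where 35.4% of all genes did so. They lay below in Gata6 and Mef2a, where 9.36% of all genes did so.

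**Figure D2:**
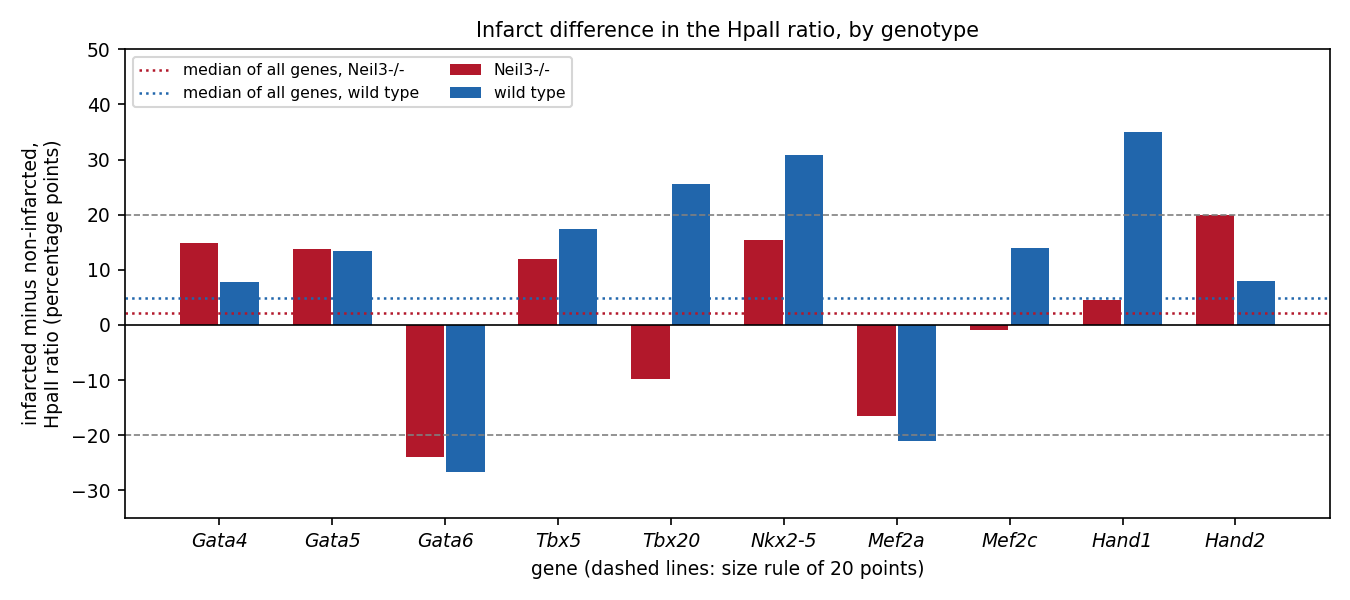
Infarcted minus non-infarcted HpaII ratio in percentage points (vertical axis) for the 10 genes, with Neil3-/- bars in red left of wild-type bars in blue. Dotted lines are the medians of all genes, 2.09 points in Neil3-/- and 4.84 points in wild type, and dashed lines mark 20 points. Gata6 is past the lower dashed line in both genotypes, at -24.0 and -26.7 points.

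Gata6 codes for a zinc finger factor of the heart and of endoderm, and it lies on chromosome 18 from 11052510 to 11085636. Its 33 sites gave an HpaII ratio of 189% in Neil3-/- infarcted, 213% in Neil3-/- non-infarcted, 191% in wild-type infarcted and 218% in wild-type non-infarcted tissue. The infarcted samples were alike and so were the non-infarcted ones. The difference was -24.0 points in Neil3-/- and -26.7 points in wild type, and 0.497% of all genes were lower by 20 points or more in both genotypes. The ratio was lower at 24 of the 33 Gata6 sites in each genotype and higher at 9, where 50.2% of all autosomal sites were higher in Neil3-/- and 50.3% in wild type. Among the 19 sites with a mean MspI signal of at least 20 units it was lower at 16 in Neil3-/- and at 15 in wild type. Summed over these 19 sites alone the difference was -27.3 points in Neil3-/- and -18.2 points in wild type, so the wild-type value then fell short of the rule of size.

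The MspI library accounts arithmetically for the lower Gata6 ratio, more than the HpaII library does. Of every 1000000 units of MspI signal on the autosomal sites shared by the tables, Gata6 took 37.0 in Neil3-/- infarcted, 32.8 in Neil3-/- non-infarcted, 38.3 in wild-type infarcted and 31.4 in wild-type non-infarcted tissue. Both infarcted samples were higher, by 1.13-fold in Neil3-/- and 1.22-fold in wild type. Of every 1000000 units of HpaII signal it took 65.7 in Neil3-/- infarcted, 66.8 in Neil3-/- non-infarcted, 69.4 in wild-type infarcted and 67.6 in wild-type non-infarcted tissue, which is 0.984-fold and 1.03-fold. The MspI share was higher after infarction at 29 of 33 sites in Neil3-/-, beside 49.2% of all autosomal sites, and at 25 in wild type, beside 52.1%. At 23 sites it was higher in both, beside 26.2% of all autosomal sites. By a fold of 1.1, a limit added after the values were seen, the MspI share of Gata6 was higher in each genotype, where 6.69% of all genes were in Neil3-/-, 12.7% in wild type and 1.87% in both. The limit sets how many of the 10 genes pass, since Tbx20 and Mef2a in Neil3-/- lay just below it, both at 1.09-fold, and Mef2a and Hand2 missed it in wild type by less than the rounding of a printed value. MspI cuts modified and unmodified CCGG, and what moved its signal at Gata6 was not tested.

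**Figure D3:**
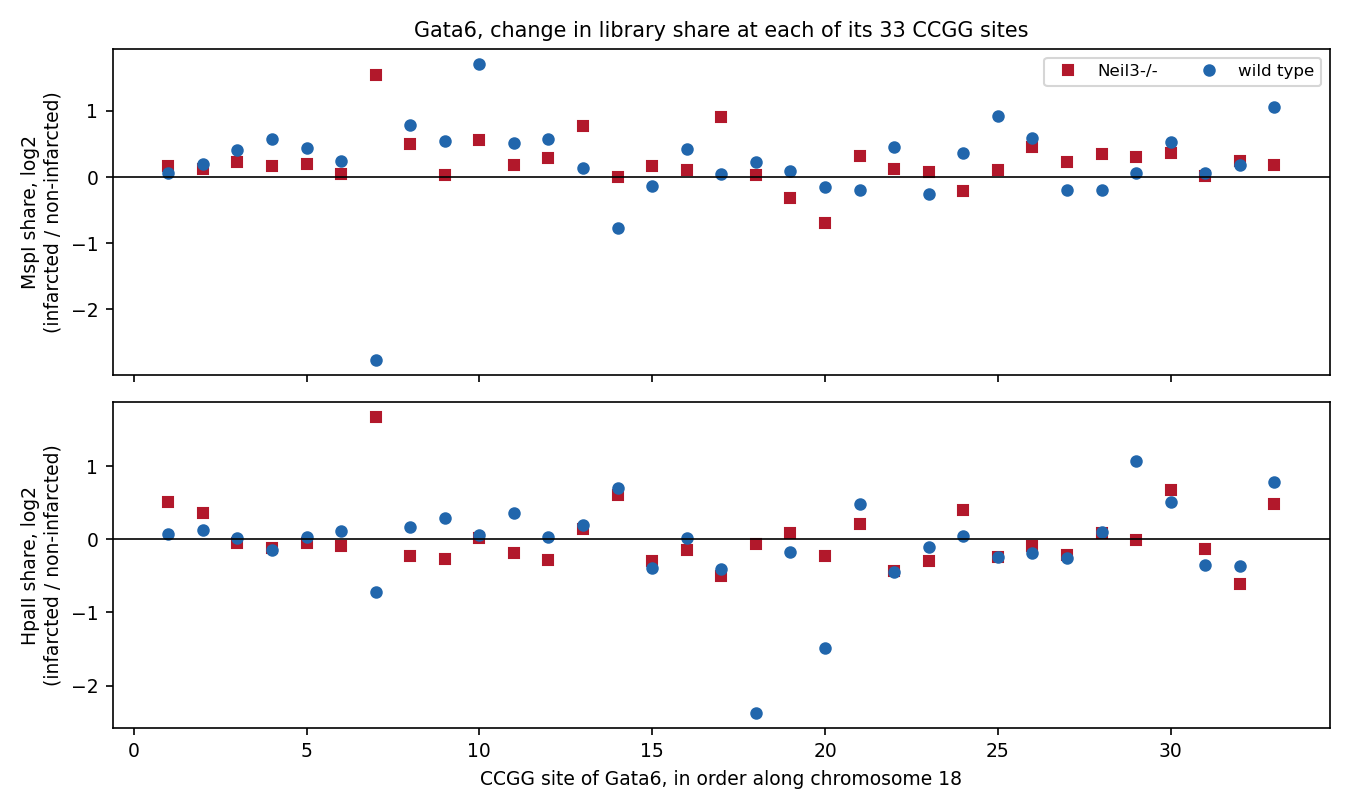
Log2 of the infarcted over the non-infarcted share of the MspI library (upper panel) and of the HpaII library (lower panel) at each of the 33 Gata6 sites, in order along the chromosome, red squares for Neil3-/- and blue circles for wild type. In the MspI panel 29 squares and 25 circles lie above 0, and in the HpaII panel 12 squares and 19 circles do.

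Single Gata6 sites spread widely. The site at 11063344 had an HpaII ratio of 171% in Neil3-/- infarcted, 445% in Neil3-/- non-infarcted, 219% in wild-type infarcted and 288% in wild-type non-infarcted tissue, lower after infarction in each genotype. The site at 11075691 had 293% in Neil3-/- infarcted, 424% in Neil3-/- non-infarcted, 257% in wild-type infarcted and 422% in wild-type non-infarcted tissue, again lower in each. The opposite was seen at 11066721 in wild type only, with 229% in Neil3-/- infarcted, 243% in Neil3-/- non-infarcted, 411% in wild-type infarcted and 245% in wild-type non-infarcted tissue. Of the 33 sites, 2 also lie in the long non-coding RNA gene Gata6os, so their signal cannot be assigned to Gata6 alone.

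Gata4, the partner of Gata6 in the developing and adult myocardium, lies on chromosome 14 from 63198914 to 63271712. Its 86 sites gave 189% in Neil3-/- infarcted, 174% in Neil3-/- non-infarcted, 181% in wild-type infarcted and 173% in wild-type non-infarcted tissue. The difference was 14.9 points in Neil3-/- and 7.81 points in wild type, short of the rule of size. At the 65 sites of higher MspI signal the directions were nearly even, with 32 higher and 33 lower in Neil3-/- and 33 higher and 32 lower in wild type. The site at 63267724 was the furthest up in each genotype, at 485% in Neil3-/- infarcted, 286% in Neil3-/- non-infarcted, 591% in wild-type infarcted and 317% in wild-type non-infarcted tissue.

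Gata5, a GATA factor of endocardium in the embryo, lies on chromosome 2 from 180325088 to 180335503. Its 18 sites gave 163% in Neil3-/- infarcted, 149% in Neil3-/- non-infarcted, 171% in wild-type infarcted and 157% in wild-type non-infarcted tissue. The infarct difference was alike in the genotypes, 13.8 points in Neil3-/- and 13.4 points in wild type. In both genotypes the MspI share was slightly lower after infarction, by 0.958-fold and 0.956-fold, which is the reverse of Gata6. The non-coding gene Gata5os overlaps 8 of the sites and the non-coding gene Gm52543 overlaps 1.

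Among the T-box genes, Tbx5, which governs formation of the left ventricle and the conduction system, lies on chromosome 5 from 119796514 to 119885220. Its 85 sites gave 205% in Neil3-/- infarcted, 193% in Neil3-/- non-infarcted, 201% in wild-type infarcted and 184% in wild-type non-infarcted tissue. The difference was 11.9 points in Neil3-/- and 17.5 points in wild type. The MspI share was nearly level, at 77.6 per 1000000 in Neil3-/- infarcted, 77.4 in Neil3-/- non-infarcted, 80.0 in wild-type infarcted and 78.7 in wild-type non-infarcted tissue, and the HpaII share was 1.05-fold and 1.07-fold higher after infarction. The non-coding gene Gm5563 overlaps 22 of these sites.

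Tbx20, a T-box factor needed by adult cardiomyocytes, had summed infarct differences of opposite sign. It lies on chromosome 9 from 24720812 to 24774303, and its 27 sites gave 193% in Neil3-/- infarcted, 203% in Neil3-/- non-infarcted, 206% in wild-type infarcted and 180.3% in wild-type non-infarcted tissue. The infarct difference was -9.76 points in Neil3-/- and 25.5 points in wild type. By site the sign was not opposite. The ratio was higher at 14 sites and lower at 13 in Neil3-/-, with a median site difference of 3.56 points. In wild type it was higher at 16 and lower at 11, with a median of 5.47 points. The largest fall in Neil3-/-, -205 points, was at 24774082, 221 bases past the start. The wild-type non-infarcted sample stood lowest of the 4. At the site 24766991 the ratio was higher after infarction in each genotype, at 642% in Neil3-/- infarcted, 271% in Neil3-/- non-infarcted, 481% in wild-type infarcted and 257% in wild-type non-infarcted tissue. At 24771096 it was 171% in Neil3-/- infarcted, 245% in Neil3-/- non-infarcted, 393% in wild-type infarcted and 149% in wild-type non-infarcted tissue, where the genotypes differed in direction. Whether the infarct response of Tbx20 differs between the genotypes was not tested.

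Nkx2-5, the homeobox factor that marks cardiac progenitors, lies on chromosome 17 from 26838664 to 26844988. Its 13 sites gave 171% in Neil3-/- infarcted, 155% in Neil3-/- non-infarcted, 191% in wild-type infarcted and 160.2% in wild-type non-infarcted tissue. The difference was 15.4 points in Neil3-/- and 30.9 points in wild type. In Neil3-/- the HpaII share was 1.11-fold and the MspI share 1.03-fold, so the numerator moved more, and in wild type the HpaII share was 1.01-fold and the MspI share 0.885-fold, so the denominator moved more. In wild type the ratio was higher at 10 of the 13 sites, with a median site difference of 18.1 points, and without the site of highest MspI signal the summed difference was 36.3 points. Of 11 settings, the main one among them, only the median of per-site ratios gave the other sign in wild type, at -8.91 points. At 26839897 the MspI signal was 30.0 in Neil3-/- infarcted, 12.1 in Neil3-/- non-infarcted, 13.1 in wild-type infarcted and 53.1 in wild-type non-infarcted tissue, with no shared direction. The infarct difference in the HpaII ratio there was -74.8 points in Neil3-/- and 543 points in wild type. In infarcted tissue the ratio there was lower in Neil3-/- by 415 points. This is not the site of highest MspI signal, so the 36.3 points above still include it. The summed Nkx2-5 differences without it were not computed. Whether Nkx2-5 would pass the rule of size without this site was therefore not tested.

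The MADS-box genes differed from the rest in having few measured sites per kilobase. Mef2a, the main Mef2 factor of adult heart muscle, lies on chromosome 7 from 67231163 to 67376456 and had 27 shared sites of 38 listed in any table. They gave 142% in Neil3-/- infarcted, 158% in Neil3-/- non-infarcted, 126% in wild-type infarcted and 147% in wild-type non-infarcted tissue. The difference was -16.6 points in Neil3-/- and -21.1 points in wild type, which fell short of the rule in Neil3-/-. The ratio was lower at 19 of the 27 sites in Neil3-/- and at 17 in wild type. Among the 15 sites with a mean MspI signal of at least 20 units it was lower at 12 in Neil3-/-. In wild type these 15 were nearly even, with 7 higher and 8 lower. As at Gata6 the MspI share was higher after infarction, at 23.4 per 1000000 in Neil3-/- infarcted, 21.5 in Neil3-/- non-infarcted, 23.8 in wild-type infarcted and 21.6 in wild-type non-infarcted tissue, and here the HpaII share was also lower, at 0.959-fold and 0.905-fold. The site at 67237894, near the far end of the gene, gave 272% in Neil3-/- infarcted, 361% in Neil3-/- non-infarcted, 223% in wild-type infarcted and 206% in wild-type non-infarcted tissue, with no shared direction. Without the site of highest MspI signal the wild-type difference was -17.8 points.

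Mef2c, which acts in the anterior heart field, in muscle and in endothelium, lies on chromosome 13 from 83504017 to 83667079 and had 48 shared sites of 57. They gave 121% in Neil3-/- infarcted, 122% in Neil3-/- non-infarcted, 130.3% in wild-type infarcted and 116% in wild-type non-infarcted tissue. The difference was -0.968 points in Neil3-/- and 13.9 points in wild type. Sites were evenly split in Neil3-/-, with 24 higher and 24 lower. The non-coding genes Gm52043 and Gm52044 overlap 9 and 7 of the sites.

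Hand1 and Hand2 are the shortest of the 10 genes and had the highest HpaII ratios. Hand1 lies on chromosome 11 from 57828713 to 57832147, and its 17 sites gave 235% in Neil3-/- infarcted, 230.4% in Neil3-/- non-infarcted, 258% in wild-type infarcted and 223% in wild-type non-infarcted tissue. The difference was 4.44 points in Neil3-/- and 35.0 points in wild type. In wild type the HpaII share was 1.12-fold and the MspI share 1.01-fold. At the sites with a mean MspI signal of at least 20 units the wild-type difference was 8.43 points, short of the rule of size. The site at 57827212 gave 258% in Neil3-/- infarcted, 219% in Neil3-/- non-infarcted, 457% in wild-type infarcted and 201% in wild-type non-infarcted tissue. The non-coding gene Gm32915 overlaps 6 of the sites.

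Hand2 lies on chromosome 8 from 57320983 to 57324517, and its 13 sites gave 285% in Neil3-/- infarcted, 265% in Neil3-/- non-infarcted, 307% in wild-type infarcted and 299% in wild-type non-infarcted tissue. The infarct difference was 20.02 points in Neil3-/- and 8.05 points in wild type. The Neil3-/- value rests on a single site: without that of the highest MspI signal it was -2.67 points. The ratio was lower after infarction at 8 of the 13 sites in each genotype and higher at 5. At 57321162, just inside the gene, the ratio was 451% in Neil3-/- infarcted, 321% in Neil3-/- non-infarcted, 427% in wild-type infarcted and 306% in wild-type non-infarcted tissue, higher after infarction in each genotype. At 57322206 it was 250.5% in Neil3-/- infarcted, 385% in Neil3-/- non-infarcted, 385% in wild-type infarcted and 319% in wild-type non-infarcted tissue, with no shared direction.

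**Figure D4:**
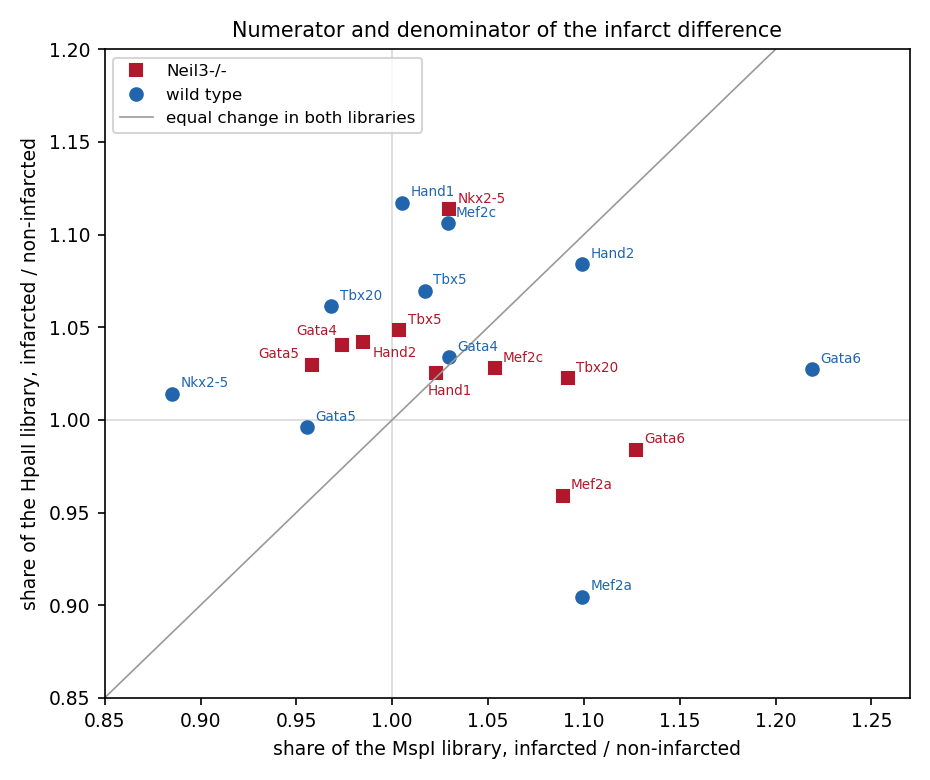
For each gene and genotype, the infarcted over non-infarcted fold of its share of the MspI library (horizontal axis) and of the HpaII library (vertical axis), red squares for Neil3-/- and blue circles for wild type. Points below the diagonal had a fold of the HpaII share smaller than that of the MspI share. Gata6 stands furthest right in both genotypes, at 1.13-fold and 1.22-fold, and Mef2a lies lowest.

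A test across all genes was fitted to the log2 ratios with limma, by an additive model of infarction and genotype over the 4 samples. It has 1 residual degree of freedom per gene and takes a difference in infarct response between the genotypes as error. For infarction and the HpaII ratio it called 0 of 16887 genes (0%) at a Benjamini-Hochberg adjusted p of 0.05, while 2125 had an unadjusted p under 0.05. Gata6 was at -0.18 ± 0.06 (log2, SE, adjusted p = 0.342), Mef2a at -0.19 ± 0.06 (adjusted p = 0.333) and Nkx2-5 at 0.20 ± 0.07 (adjusted p = 0.339). The 7 others had adjusted p-values of 0.486 to 0.787. Fitted to the MspI share in place of the ratio, the limma infarct effect on Gata6 was 0.23 ± 0.05 (log2, SE), with a Benjamini-Hochberg adjusted p of 0.584. None of the 10 genes passed in these limma fits. Over 11 settings, the main one among them, the Gata6 difference was negative in 10 in Neil3-/- and in 11 in wild type. The exception, 22.1 points, came from a scaling of the libraries that rests on only 6 sites.

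The genotype comparison asks what the loss of Neil3 does in the same kind of tissue. In infarcted tissue 3 genes had a lower HpaII ratio in Neil3-/- by the rule of size, Nkx2-5 at -20.6 points, Hand1 at -23.0 points and Hand2 at -22.4 points, against 6.15% of all genes, and 0 were higher, against 4.42%. With the gene span alone Hand2 turned to 10.1 points, and with the median of per-site ratios Nkx2-5 turned to 9.61 points. The Nkx2-5 sum includes the site at 26839897, lower in Neil3-/- by 415 points, and the sum without it was not computed. In all, 3 genes were higher in Neil3-/- infarcted tissue, against 52.2% of all genes, and 6 in Neil3-/- non-infarcted tissue, against 66.0%. In non-infarcted tissue Tbx20 was higher in Neil3-/- by 22.9 points, against 4.55% of all genes, and Hand2 was lower, at -34.3 points, against 3.71%. With 5 kb either side in place of 2 kb Hand2 was at only -3.67 points in non-infarcted and -7.14 points in infarcted tissue, and with the median of per-site ratios Tbx20 was at 9.31 points. At the sites with a mean MspI signal of at least 20 units, Hand1 was at -11.6 points and Hand2 at -3.30 points in infarcted tissue. Both Neil3-/- samples lay below both wild-type samples in Hand2 alone, where 9.0% of all genes did so. They lay above in 0 of the 10, against 21.6% of all genes. The infarct and the genotype comparisons share samples and are not independent. In the additive limma fit 2 genes of 16887 (0.0118%) passed for genotype, neither of them among the 10, and Hand2 was at -0.14 ± 0.06 (log2, SE, adjusted p = 0.783).

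Hand2 shares with Neil3 a stretch of chromosome 8, from 51 to 59 Mb, in which sites were missing from the Neil3-/- tables. Of 1789 sites listed in both wild-type tables there, 176 were absent from both Neil3-/- tables, which is 9.84% against 0.731% on the rest of the autosomes. Within 500 kb of Hand2 it was 20 of 438, or 4.57%. All 13 sites of Hand2 itself were listed in all 4 tables. Genotype and the state of this stretch cannot be told apart at Hand2, and their part in its values was not tested. Among the 10 genes no site was listed in both wild-type tables and absent from both Neil3-/- tables.

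Of the 4 BGT libraries, the wild-type non-infarcted one followed its MspI library least closely. Over all shared autosomal sites the correlation of log2 BGT with log2 MspI within a sample was 0.534 there, and 0.725 in Neil3-/- infarcted, 0.698 in Neil3-/- non-infarcted and 0.701 in wild-type infarcted tissue. Sites of a sample share their libraries, so these values are descriptions. A correlation belongs to a pair, so the BGT library said below to stand apart does so only together with its MspI library. The HpaII ratios of wild-type non-infarcted tissue divide by that same MspI library, and its part in them was not tested. In level, Hand2 was highest of the 10 in every sample, at 168% in Neil3-/- infarcted, 157% in Neil3-/- non-infarcted, 144% in wild-type infarcted and 231% in wild-type non-infarcted tissue. Mef2c was lowest, at 69.5% in Neil3-/- infarcted, 76.9% in Neil3-/- non-infarcted, 78.0% in wild-type infarcted and 76.9% in wild-type non-infarcted tissue, and 90.4% to 98.1% of all genes stood above it. Mef2a came next above Mef2c, at 78.4% in Neil3-/- infarcted, 82.2% in Neil3-/- non-infarcted, 83.4% in wild-type infarcted and 90.0% in wild-type non-infarcted tissue. The median gene was at 100.6% to 104%. As whole windows the Mef2 genes thus lay on the side of relatively more 5hmC and the 8 others above the median gene in each sample. Away from a start the BGT ratio was 63.3% to 65.8% in Mef2a and 63.8% to 74.9% in Mef2c over the 4 samples. Within 1 kb of a start it was 148% to 225% in Mef2a and 113% to 168% in Mef2c, above the median gene. Whether the few measured sites per kilobase of these genes had a part in their levels was not tested.

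**Figure D5:**
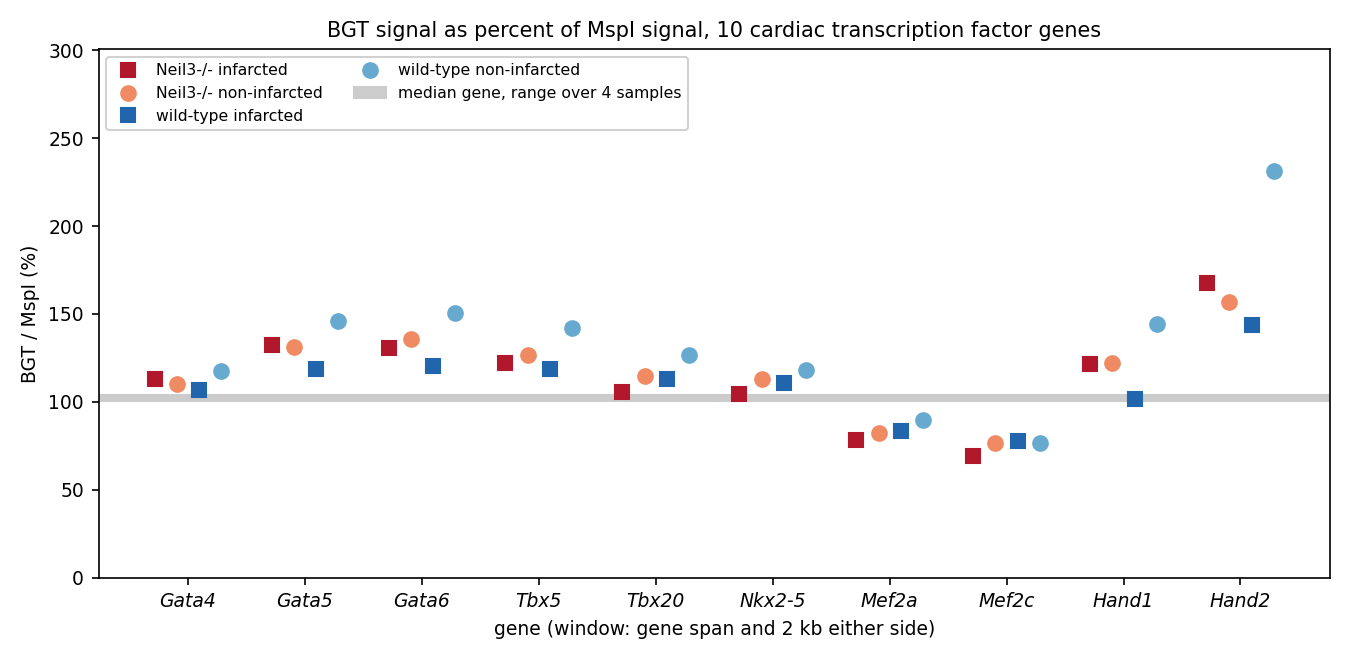
BGT signal as a percent of MspI signal (vertical axis) for the 10 genes, 1 point per sample, Neil3-/- in red and orange, wild type in blue, squares for infarcted and circles for non-infarcted tissue. The grey band is the range of the median gene over the 4 samples. Mef2a and Mef2c lie below the band in all samples, and the wild-type non-infarcted circle is the highest point in 9 of the genes.

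Within Neil3-/- none of the genes differed by 20 points or more in the BGT ratio after infarction, where 1.69% of all genes were higher and 3.53% lower. Of the 10 genes, 3 were higher, against 50.6% of all genes. The differences ran from -9.20 points in Tbx20 to 10.8 points in Hand2. Within wild type Gata5, Gata6, Tbx5, Hand1 and Hand2 were lower by the rule, at -27.5, -30.5, -23.4, -42.7 and -87.6 points, against 16.9% of all genes, and 0 were higher, against 2.12%. Only Mef2c was higher at all, by 1.05 points, against 38.9% of all genes. Each of these 5 uses the wild-type non-infarcted BGT library, which stands apart by that correlation, and its part in them was not tested. Both infarcted samples lay below both non-infarcted ones in Gata6, Tbx5, Tbx20, Nkx2-5 and Hand1, where 23.5% of all genes did so. In Hand1 the gap in Neil3-/- was only -0.581 points, with 9 sites higher and 8 lower. For Gata6 the MspI share was higher in infarcted tissue of both genotypes, as given above, and the same denominator enters its BGT ratio of 131% in Neil3-/- infarcted, 136% in Neil3-/- non-infarcted, 120.4% in wild-type infarcted and 151% in wild-type non-infarcted tissue. The Gata6 share of the BGT library was 49.5 per 1000000 in Neil3-/- infarcted, 45.6 in Neil3-/- non-infarcted, 47.7 in wild-type infarcted and 48.6 in wild-type non-infarcted tissue, with no shared direction.

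Between genotypes, the BGT ratio of Hand2 in infarcted tissue was higher in Neil3-/- by 24.0 points, against 3.55% of all genes, and it was the only one of the 10 past the rule there, with 0 lower, against 2.38% of all genes. In that tissue 6 of the 10 were higher in Neil3-/- at all, against 59.3% of all genes. The infarcted comparison does not use the library that stands apart. By site, though, the BGT ratio of Hand2 in infarcted tissue was lower in Neil3-/- at 8 of 13 sites and higher at 5, with a median site difference of -15.3 points, and with 5 kb either side the summed difference was 1.02 points. In non-infarcted tissue Hand1 and Hand2 were lower in Neil3-/-, at -22.2 and -74.3 points, against 11.9% of all genes, and 0 were higher, against 2.42%. All 10 were lower there by some amount, where 42.6% of all genes were higher. These non-infarcted values use the wild-type library that stands apart, and its part in them was not tested. Both Neil3-/- samples lay below both wild-type samples in Mef2a and Mef2c, where 14.0% of all genes did so, and in Mef2c the gap in non-infarcted tissue was only -0.0648 points. With limma 0 genes passed for either effect on the BGT ratio, with 1044 genes at an unadjusted p under 0.05 for infarction and 685 for genotype. The 10 genes had adjusted p-values of 0.786 to 1.

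Of 30 other regulators of heart development, 29 were measured. In Neil3-/- 20 had a higher and 9 a lower HpaII ratio after infarction, where 61.2% of all genes were higher, and the median was 2.69 points beside 2.09 points over all genes. By the rule of size 1 was higher there, against 6.82% of all genes, and 1 lower, against 2.82%, so in Neil3-/- these regulators were near the background. In wild type 24 were higher and 5 lower, where 69.1% of all genes were higher, with a median of 12.7 points beside 4.84 points over all genes. By the rule 10 were higher in wild type, against 12.1% of all genes, and 1 was lower, against 3.28%. Mef2b, a Mef2 family member best known from B cells, was past the rule upward in both genotypes, as were 2.69% of all genes, at 155% in Neil3-/- infarcted, 131% in Neil3-/- non-infarcted, 156% in wild-type infarcted and 133% in wild-type non-infarcted tissue. None of the 29 was lower by the rule in both genotypes, as Gata6 was. In infarcted tissue 20 had a lower and 9 a higher HpaII ratio in Neil3-/-, where 52.2% of all genes were higher. In non-infarcted tissue the BGT ratio was lower in Neil3-/- at 26, 10 by the rule against 11.9% of all genes. After infarction in wild type it was lower at 25, 16 by the rule against 16.9% of all genes. Both BGT comparisons use the wild-type non-infarcted library that stands apart. Most of the 10 genes had these directions too.

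Marker genes of the cell types that the tissue holds were read against the same background, in which 61.2% of all genes were higher in infarcted tissue in Neil3-/- and 69.1% in wild type, with medians of 2.09 and 4.84 points. Of 12 cardiomyocyte genes 11 were lower in infarcted tissue in Neil3-/- and 10 in wild type, with medians of -6.78 and -10.3 points. Of 10 measured leukocyte genes 8 were higher in each genotype, a count near that background, with medians of 5.74 points in Neil3-/- and 15.5 points in wild type. Of 7 measured fibroblast genes 6 were higher in each, with medians of 8.48 and 22.2 points, and of 8 endothelial genes 5 were lower in Neil3-/- and 7 in wild type. The part of the cell mix in the values of Gata6, Mef2a and the other genes was not tested.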

How the data were processed

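Genomic DNA of 4 left ventricle samples was measured by HMST-seq. The authors deposited a signal value for each CCGG site and library, already normalized. The steps of normalization, alignment and filtering and any pooling of samples were not given in the sources used here. The submitters' processing notes name mm10 as the build. Listed positions count from 0, as 16425 of 44844 CCGG motifs in the promoter table matched at an offset of 1 base and none at the other offsets tried, and positions are printed from 1.

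Signals were summed over the sites listed in all 4 tables per gene span (RefSeq, GRCm38.p6) and 2 kb either side, and divided by the MspI sum. Library shares are per 1000000 units of signal over shared autosomal sites. Total signal per library sets no counting precision, since reads behind a value are unknown. Named genes are the 10 members. Named sites are those with the largest difference up or down per gene among sites with a mean MspI signal of at least 20, of which a part is printed. The members and lists were chosen with earlier results of these data known. Tests used limma 3.58.1 in R 4.3.3, checked on simulated data, and other steps Python 3.11.15, numpy 2.4.6 and pandas 2.3.3. Alternatives changed the signal filter, library scaling, window, summary over sites and size rule.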

Additional observations from a re-analysis of the deposited data

Results flagged for a closer look

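The infarct difference of Tbx20 in the HpaII ratio in Neil3-/- minus that in wild type was -35.3 points, the infarct difference being negative in Neil3-/- and positive in wild type. The infarct difference of Gata5 in the BGT ratio was higher in Neil3-/- than in wild type by 28.6 points, positive in Neil3-/- and negative in wild type. That of Hand2 in the BGT ratio was higher in Neil3-/- by 98.3 points, with the same signs. The difference between the genotypes was not tested in these 3 cases, since each group holds a single sample, and both BGT values use the wild-type non-infarcted BGT library that stands apart. Differences of 20 points or more between the genotypes were common, in 17.0% of all genes for the HpaII ratio and 21.6% for the BGT ratio. The 3 cases were picked for opposite signs. With like signs in the genotypes, Hand1 was at -30.6 points (HpaII) and 42.1 points (BGT), and Gata6 at 25.6 points (BGT). In Mef2a, 1 site was listed in both Neil3-/- tables and in neither wild-type table, at positions 67333528 to 67333531 of chromosome 7. Its MspI signal was 29.8 in Neil3-/- infarcted and 30.2 in Neil3-/- non-infarcted tissue, and that site was in no comparison.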

How the results depend on the processing

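No paired analysis was possible because the labels carry no replicate numbers and each group holds 1 sample. Over all alternatives and all values of the 10 genes past the size rule in the main setting, 140 stayed past it in the same direction, 64 kept their direction without passing it, and 16 turned.

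The scaling on sites with at least 10 neighbours rests on 6 sites, and it turned most of them. Under it the infarct difference in the HpaII ratio was 22.1 points for Gata6 in Neil3-/-, and -6.92 for Tbx20 and -5.64 for Hand1 in wild type. The genotype difference in infarcted tissue was 53.1 for Nkx2-5, 77.5 for Hand1 and 98.6 for Hand2 in the HpaII ratio and -63.9 for Hand2 in the BGT ratio. The wild-type infarct difference in the BGT ratio was 30.4 for Gata5, 28.4 for Gata6, 34.5 for Tbx5 and 7.23 for Hand1. Genes past the rule then numbered 9 (HpaII, infarct, Neil3-/-), 10 (HpaII, genotype, infarcted), 8 (BGT, infarct, wild type), 10 (BGT, genotype, infarcted) and 7 (BGT, genotype, non-infarcted). Scaling on the 3496 sites with at least 5 neighbours, added after seeing the data, gave 1 gene for HpaII by genotype in infarcted tissue, 2 for BGT by infarct in wild type and 0 for BGT by genotype in infarcted tissue, and left Gata6 at -17.9 points in Neil3-/- and -28.3 in wild type.

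With the median of per-site ratios, Nkx2-5 was at -8.91 points (wild type, infarct) and 9.61 (infarcted, genotype), and Hand2 at -41.0 (Neil3-/-, infarct). Hand2 was at -2.67 in that comparison without the site of highest MspI signal, and at 10.1 (infarcted, genotype) with the gene span alone. The cause was not tested.

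The other counts that moved were these. HpaII by infarct in Neil3-/- had 4 genes with the span alone and with per-site medians, 0 by a rule of fold size, and 1 with either MspI filter, equal totals, a 5 kb window, centring or without the strongest site, beside 2 in the main setting. In wild type it had 3 with an MspI filter of 10, 2 with a filter of 20 and 0 by the fold rule, beside 5. HpaII by genotype in infarcted tissue had 1 with a filter of 10 and 0 with a filter of 20, a 5 kb window or the fold rule, beside 3. In non-infarcted tissue it had 0 with a 5 kb window or the fold rule and 1 with a filter of 20, equal totals, per-site medians or centring, beside 2. BGT by infarct had 2 in Neil3-/- with per-site medians, beside 0, and 3 in wild type with a filter of 20 or the fold rule, beside 5. BGT by genotype in infarcted tissue had 2 with the span alone or without the strongest site and 0 by the fold rule, beside 1. In non-infarcted tissue it had 4 with a 5 kb window and 1 with either filter, the span alone or the fold rule, beside 2. With limma, an MspI filter of 20 called 37 genes for infarction and 12 for genotype in the HpaII ratio, and a minimum of 10 sites called 0 for genotype.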
